A study of Rattus norvegicus with 8 samples.

Results

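The respiratory chain and ATP synthase of the mitochondrial inner membrane are built from subunits encoded in the nucleus together with a small set encoded in mitochondrial DNA. The nuclear members were taken by gene symbol: every row whose symbol began with Ndufa, Ndufb, Ndufc, Ndufs, Ndufv, Uqcr, Cox4 to Cox8 or Atp5, or was Sdha, Sdhb, Sdhc, Sdhd, Cyc1 or Cycs. This gave 97 of the 32545 rows of the gene table, with 91 different symbols. By known function, 31 rows were subunits of complex I, 4 of complex II, 8 of complex III, 18 of complex IV and 15 of complex V, and 1 was somatic cytochrome c. The same symbols also took in 10 assembly factors, such as Ndufaf1 and Cox7a2l, and 10 further rows that were extra copies of a subunit or had a copy-like name. Some known subunits had no row under their usual symbol, among them Ndufa12, Ndufs6, Uqcr11 and the muscle form Cox7a1. The counts and sums below do not include them.

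The RNA came from livers of wild-type Sprague-Dawley rats labelled as about 22 weeks old, in a study that looked for long noncoding RNAs altered in the liver of rats with high triglycerides. The control rats (ND, 3 libraries) ate regular chow with 8.5% of calories as fat, 59.6% as carbohydrate and 20.3% as protein. The other rats (HFD, 5 libraries) ate a high fat diet with 41% of calories as fat, 43% as carbohydrate and 17% as protein for 24 weeks, a time longer than the labelled age. Each diet had 12 rats and each library carries a single number. Nothing in the labels says that animals were pooled, so the p-values below are taken to measure the spread between rats. That spread also holds any difference between libraries that no label names, such as the split by depth described below.

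In oxidative phosphorylation, complex I takes electrons from NADH and complex II from succinate, and both pass them to coenzyme Q. Complex III hands them on to cytochrome c and complex IV to oxygen, and the protons pumped along the way return through ATP synthase, also called complex V. In hepatocytes this machinery oxidises the reducing equivalents made by fatty acid oxidation and supplies the ATP used for gluconeogenesis and urea synthesis.

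Between 12678616 and 36152937 reads were assigned to genes per library. The libraries fell into 4 deeper ones (from 30501673 reads: ND-1, ND-3 and the first pair of HFD libraries) and 4 shallower ones (up to 18401981 reads), and no label names a batch. All 10 hepatocyte markers looked for were expressed, with a summed level of 58648 to 64018 FPKM (fragments per kilobase of gene, scaled to library size) in ND and 61964 to 66116 FPKM in HFD. HFD-3 stood apart in immune markers: the 10 Kupffer cell and macrophage markers summed to 681 FPKM there, against 243 to 331 FPKM in the other HFD libraries and 279 to 398 FPKM in ND.

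No tested subunit of any complex differed between the diets past the threshold of an adjusted p of 0.05. Of the 86 members with enough reads to test, edgeR's quasi-likelihood test called 0, where it called 1 of all 14148 tested genes (0.00707%), Fer1l5, which was lower in HFD. At an unadjusted p under 0.05 it gave 1 member, the complex I assembly factor Ndufaf6, where 5.71% of all tested genes were below that value. DESeq2 called 0 of the 86 members and 0.852% of the genes it tested, and gave 1 member at an unadjusted p under 0.05, where 5.83% of all its genes were below it. In bulk liver RNA, fewer hepatocytes and less RNA per hepatocyte cannot be told apart.

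The size of the differences can be read from the 95% interval of each fold change, computed from the edgeR fit and not adjusted for the number of genes. For 77 of the 86 members the whole interval lay within 1.5-fold in either direction, a share of 89.5% where 46.9% of all tested genes had such an interval. For 83 members (96.5%) it lay within 2-fold, against 76.1% of all tested genes. Among the 70 tested subunits, 68 had an interval within 1.5-fold and all 70 within 2-fold. The members were also more abundant than most genes, with a median of 73.1 FPKM against 4.89 FPKM over all tested genes, and the part of abundance in these shares was not tested.

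The fitted values leaned to the lower side. The fit put 58 of the 86 members (67.4%) below 0, that is lower in HFD, and 48.8% of all tested genes. The median log2 fold change of HFD against ND was -0.04 over the members and 0.01 over all tested genes. By complex it was -0.03 in complex I (10 higher and 21 lower), -0.02 in complex II (1 and 3), -0.05 in complex III (3 and 5), -0.01 in complex IV (4 and 7) and -0.05 in complex V (5 and 10). A lower side was not particular to the members. The 89 tested cytosolic ribosomal protein genes leaned further, with 69 fitted lower (77.5%) and a median of -0.08. Without ND-3, 47 of the ribosomal protein genes were fitted higher and 41 lower. Without HFD-3 the median over the members was -0.01, without ND-3 -0.0067 and without HFD-5 -0.10. The complexes shared their high and low libraries, as shown further on, so these are not counts of independent genes.

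**Figure D1:**
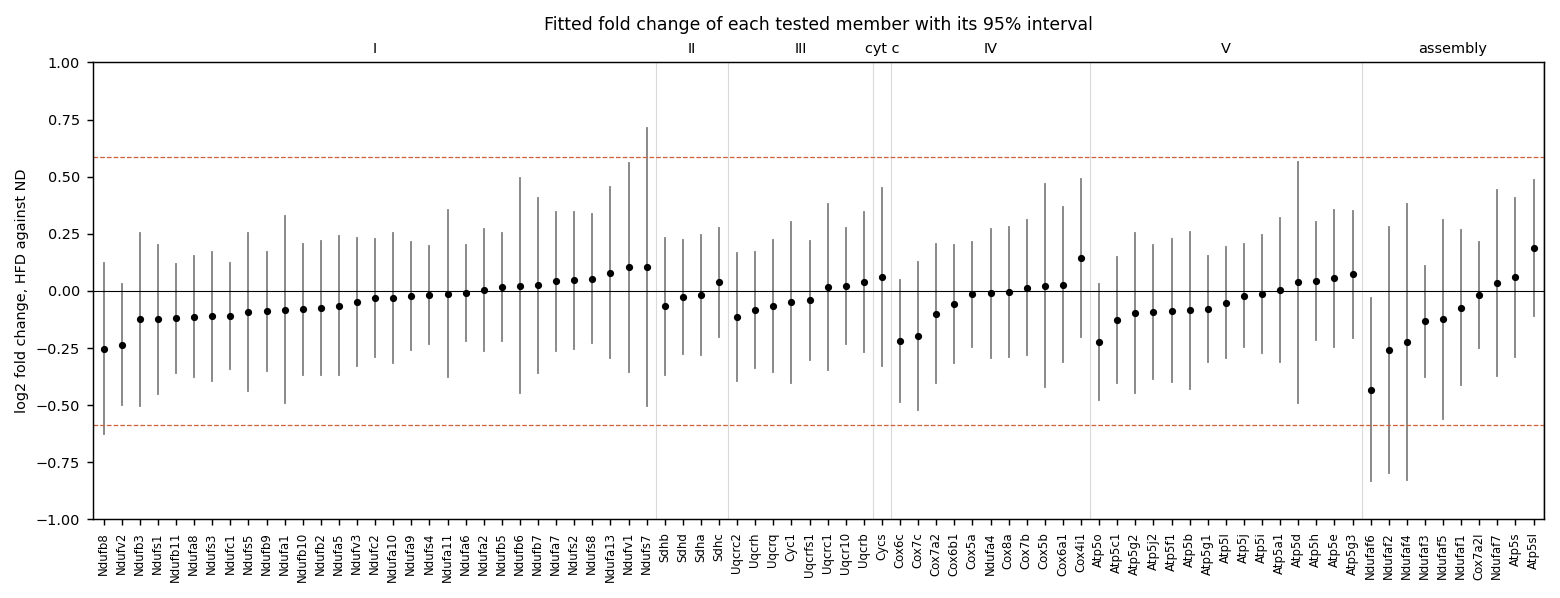
Fitted log2 fold change of HFD against ND for the 80 tested members outside the extra copies (points) with the 95% interval of each (bars), ordered within each complex, from 3 ND and 5 HFD libraries. The dashed lines mark 1.5-fold in either direction, and Ndufaf6 is the member whose interval does not reach 0.

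Sums over each complex here hold only the nuclear subunits found by symbol, without those encoded in mitochondrial DNA. Complex I stood at 2137, 2475 and 2303 FPKM in ND-1 to ND-3 and at 2253, 2068, 2113, 2353 and 2445 FPKM in HFD-1 to HFD-5. The HFD libraries spanned from below the lowest to nearly the highest ND library, with means of 2305 ± 169 (SD, n = 3) and 2246 ± 159 FPKM (SD, n = 5). Complex II had 429 ± 9.50 FPKM in ND and 426 ± 32.6 in HFD. Complex III had 625 ± 23.4 in ND and 607 ± 48.6 in HFD. In each of these complexes the means of the diets were closer than the SD among the HFD libraries. The same held for complex IV, at 2153 ± 135 FPKM in ND and 2114 ± 123 in HFD, and for complex V, at 2857 ± 51.2 and 2798 ± 224 FPKM. In complex V the ND libraries lay closer together, and there the means differed by more than the ND SD.

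Per gene length, the most abundant nuclear subunits belonged to complexes V and IV. Atp5b, the catalytic beta subunit of ATP synthase, averaged 624 FPKM over the 8 libraries, and Atp5a1, its alpha partner, 330 FPKM. Next came Cox6c at 291, Cox4i1 at 275 and Atp5l at 271 FPKM. The typical complex I subunit was lower: the median was 65.3 FPKM, against 184 FPKM in complex IV and 169 FPKM in complex V. FPKM divides by the annotated length, and this weighs on some members: Atp5c1, the gamma subunit that turns inside the alpha and beta ring, came out at 19.2 FPKM over an implied length of 9764 nucleotides, and Atp5d of the central stalk at 13.4 FPKM over 3267 nucleotides, where the median member had 808.5.

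**Figure D2:**
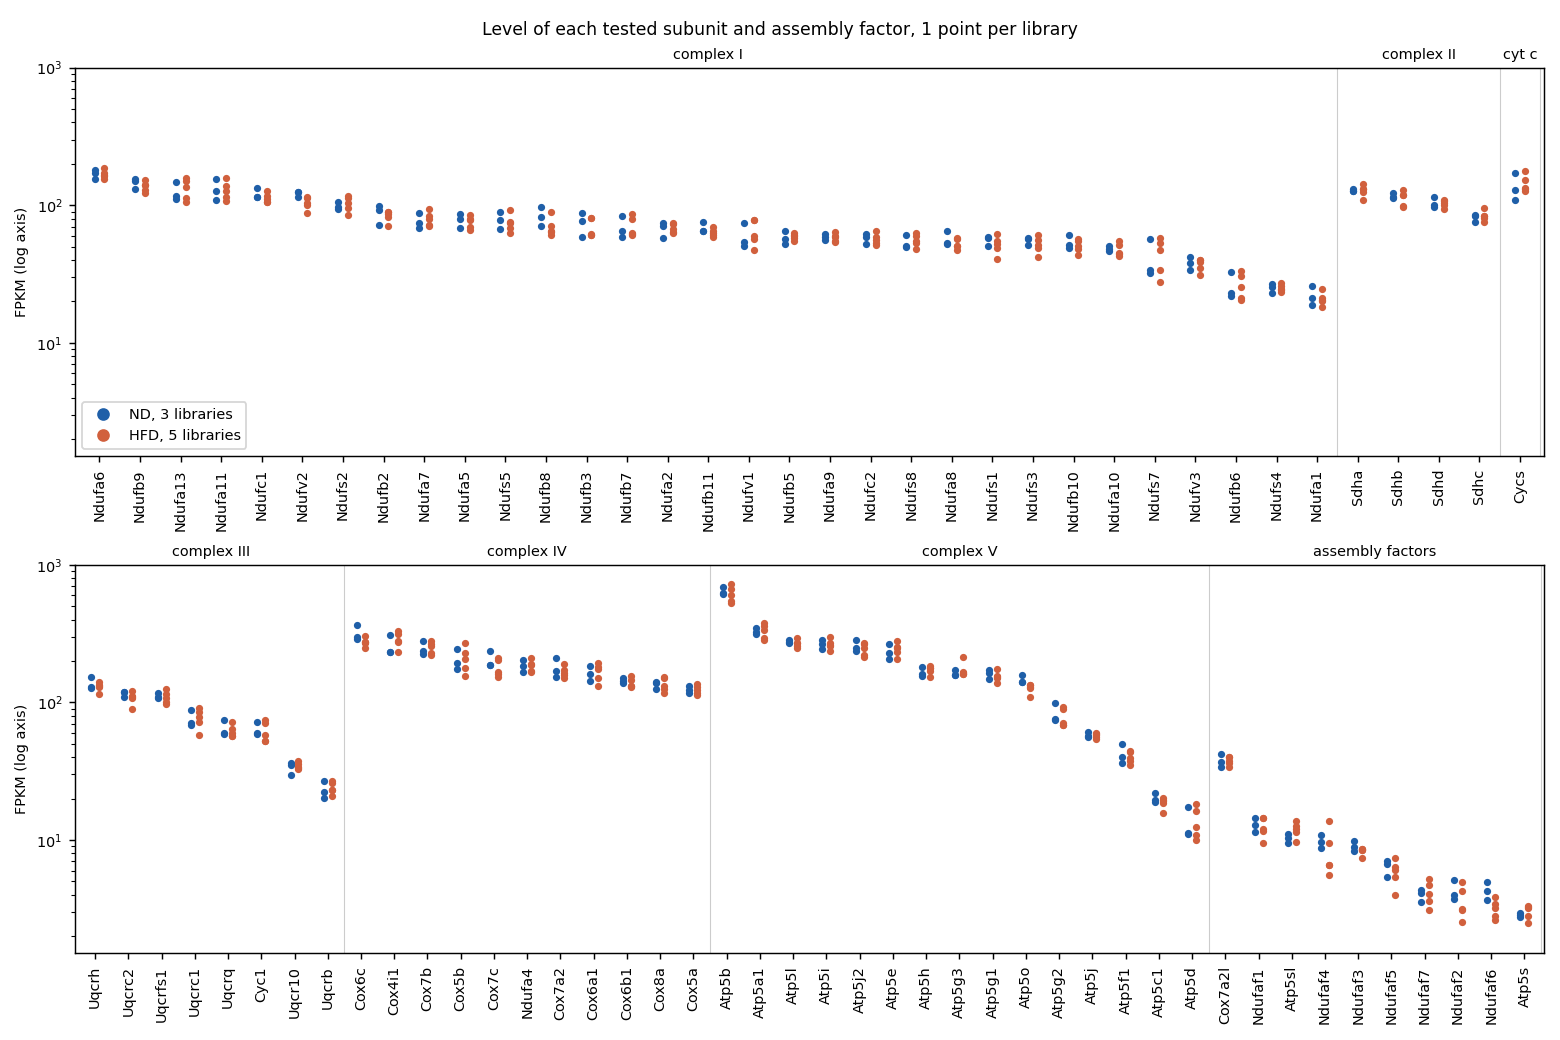
Level in FPKM (log axis) of each of the 80 tested members outside the extra copies, 1 point per library, with ND in blue (3 libraries) and HFD in orange (5 libraries), ordered by mean level within each complex. The diets overlap in nearly every gene, and the assembly factors have a median of 7.30 FPKM, with Cox7a2l the highest of them at 37.6 FPKM.

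In complex I, the most abundant member was Ndufa6, an accessory subunit, at 156, 181 and 170 FPKM in ND-1 to ND-3 and 187, 172, 167, 164 and 156 FPKM in HFD-1 to HFD-5. Its diets overlapped throughout and its log2 fold change was -0.01, with an interval of -0.22 to 0.20. It also had the smallest spread of any tested member, with a within-diet SD of 0.07 on the log2 CPM scale.

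The nuclear complex I subunits with the smallest p-values were Ndufv2 and Ndufb8. Ndufv2 (chromosome 9, 113875703 to 113900190 on Rnor_6.0), an iron-sulfur subunit of the module that oxidises NADH, had 115, 126 and 125 FPKM in ND-1 to ND-3 and 104, 100, 88.5, 113 and 115 FPKM in HFD-1 to HFD-5. The HFD libraries lay lower except HFD-5, which was as high as ND-1, and the log2 fold change was -0.23 (interval -0.50 to 0.03, edgeR adjusted p = 0.935). Ndufb8, an accessory subunit of the membrane arm, had 81.7, 97.6 and 70.6 FPKM in ND and 65.1, 60.4, 64.1, 71.0 and 89.8 FPKM in HFD. The diets overlapped through ND-3 and HFD-5, and the log2 fold change of -0.25 had an interval of -0.63 to 0.12 (edgeR adjusted p = 0.993).

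Complex II is also the succinate dehydrogenase of the citric acid cycle. It was the steadiest complex, with a median coefficient of variation of 7.31% over the 8 libraries, from 4 genes. The other complexes were not far from it, at 9.75% (III), 9.87% (V), 10.4% (I) and 11.7% (IV). All tested genes, most of them less abundant, had 19.6%, and the part of abundance in this gap was not tested. The complex II flavoprotein Sdha had 130, 127 and 127 FPKM in ND-1 to ND-3 and 130, 109, 130, 142 and 126 FPKM in HFD-1 to HFD-5. HFD-2 was the lowest library and HFD-4 the highest, with all 3 ND libraries between them, and the log2 fold change was -0.02 (interval -0.28 to 0.24). The iron-sulfur subunit Sdhb (log2 fold change -0.07) and the membrane anchor Sdhc (0.04) also overlapped between the diets, with edgeR adjusted p of 0.993 each.

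In complex III, the hinge protein Uqcrh had 130, 126 and 154 FPKM in ND-1 to ND-3 and 140, 131, 116, 134 and 130 FPKM in HFD-1 to HFD-5, and its log2 fold change was -0.08. The core protein Uqcrc2 had 119, 110 and 119 FPKM in ND and 120.5, 108, 89.7, 112 and 110 FPKM in HFD. HFD-3 was the lowest library in both genes, and neither difference passed (Uqcrc2 log2 fold change -0.12, edgeR adjusted p = 0.993). Cytochrome c, encoded by Cycs, was more variable, at 129, 109 and 171 FPKM in ND and 176, 153, 133, 127 and 132 FPKM in HFD. Its ND libraries alone spanned most of the range, and the log2 fold change was 0.06 with an interval of -0.33 to 0.45.

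In complex IV, Cox6c (chromosome 7, 74723179 to 74735650 on Rnor_6.0), a small accessory subunit, had 287, 301 and 364 FPKM in ND-1 to ND-3 and 303, 276, 270, 249 and 277 FPKM in HFD-1 to HFD-5. The highest library was ND-3 and HFD-4 the lowest, but by FPKM HFD-1 lay above ND-1 and ND-2. After TMM scaling HFD-1 had 133 CPM, between ND-2 with 130 and ND-1 with 134. The log2 fold change of Cox6c was -0.22 (interval -0.49 to 0.05, edgeR adjusted p = 0.953). Cox7c, another small membrane subunit, had 186, 186 and 238 FPKM in ND and 203, 209, 161, 154 and 167 FPKM in HFD. Here HFD-1 and HFD-2 were above 2 of the 3 ND libraries, and the log2 fold change was -0.20 (edgeR adjusted p = 0.993).

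Several complex IV subunits exist as a form found in most tissues and a second form that is best known from muscle, lung or testis, and the liver used the first form nearly alone. Over all 8 libraries, Cox4i1 had 37532 reads and the lung form Cox4i2 had 26. The muscle forms were as scarce: 18 reads of Cox6a2 against 16826 of Cox6a1, and 2 of Cox8b against 12731 of Cox8a. Cox6b2, a testis form, had 19 reads against 16460 of Cox6b1, Cox8c had 1 read, and Cox7b2 had 0 among 194628788 reads, against 23618 of Cox7b. A count of 0 allows up to 3 reads.

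Ndufa4, once counted in complex I and now as a complex IV subunit, had 28774 reads, and Ndufa4l2, a paralogue known to be induced by hypoxia, had 14. Of Ndufa4l2, 3 reads were in the ND libraries and 11 in the HFD libraries. None of these second forms had enough reads to be tested, and their counts per diet (11 and 15 for Cox4i2, 3 and 15 for Cox6a2, 9 and 10 for Cox6b2 in ND and HFD) are too small to set a direction.

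Of the first forms, Cox4i1 had 233, 307 and 234 FPKM in ND-1 to ND-3 and 275, 231, 279, 312 and 333 FPKM in HFD-1 to HFD-5. HFD-2 was as low as the lowest ND library, and the log2 fold change was 0.14 (interval -0.20 to 0.49, edgeR adjusted p = 0.993). The others had log2 fold changes of 0.03 (Cox6a1), -0.06 (Cox6b1), -0.10 (Cox7a2), 0.01 (Cox7b), -0.0047 (Cox8a) and -0.01 (Ndufa4), each with both signs inside its interval.

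In complex V, Atp5b had 695, 620 and 616 FPKM in ND-1 to ND-3 and 600, 530, 548, 662 and 720 FPKM in HFD-1 to HFD-5. HFD-5 was the highest library and HFD-2 the lowest, so the HFD libraries enclosed the ND libraries, and the log2 fold change was -0.09 (interval -0.43 to 0.26). Atp5o (chromosome 11, 32081574 to 32088002 on Rnor_6.0), which joins the catalytic head to the peripheral stalk, had 140, 141 and 158 FPKM in ND and 133, 126, 109, 130 and 133 FPKM in HFD. By FPKM all 5 HFD libraries were below the 3 ND libraries, but after edgeR's TMM scaling HFD-5 had 115 CPM, above ND-2 with 112. The log2 fold change of Atp5o was -0.22 (interval -0.48 to 0.03, edgeR adjusted p = 0.940). Atp5c1 was also fitted lower, with a log2 fold change of -0.13 (interval -0.40 to 0.15, edgeR adjusted p = 0.993).

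The rotor ring of ATP synthase is made of subunit c, and 3 genes encode the same mature protein behind different import sequences. Atp5g3 gave 40.1% ± 2.78 (SD, n = 3) of the summed FPKM of the 3 genes in ND and 42.7% ± 1.67 (SD, n = 5) in HFD. Atp5g1 gave 39.6% ± 0.658 in ND and 38.1% ± 1.66 in HFD, and Atp5g2 gave 20.3% ± 2.55 and 19.2% ± 1.86. The ranges of the diets overlapped for each gene, and the largest deviation was that of Atp5g3 in HFD-4, with 214.5 FPKM where the other 7 libraries had 157 to 173. None of the 3 passed, with log2 fold changes of -0.08 (Atp5g1), -0.10 (Atp5g2) and 0.07 (Atp5g3) and edgeR adjusted p of 0.993 each.

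The assembly factors, which are not part of the finished complexes, were expressed at a median of 7.30 FPKM. Their median log2 fold change was -0.10, with 3 fitted higher and 7 lower. Ndufaf6 (chromosome 5, 24297094 to 24320786 on Rnor_6.0), needed in human cells to build the early membrane part of complex I, had 3.65, 4.26 and 4.92 FPKM in ND-1 to ND-3 and 3.85, 3.40, 2.82, 3.23 and 2.64 FPKM in HFD-1 to HFD-5. By FPKM HFD-1 lay above ND-1, and after TMM scaling the diets were barely apart, with 4.16 CPM in ND-1 and 4.13 in HFD-1. It was the only tested member whose scaled ranges did not overlap, where 3.9% of all tested genes had such ranges. Its log2 fold change was -0.43 (interval -0.83 to -0.03, edgeR adjusted p = 0.838), on 41 to 164 reads per library.

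Cox7a2l, a factor that joins complexes III and IV into supercomplexes, was the most abundant of the assembly factors at 37.6 FPKM and had a log2 fold change of -0.02. Atp5sl, despite its symbol, is known in human cells as an assembly factor of complex I, and was fitted higher in HFD (0.19, interval -0.11 to 0.49, edgeR adjusted p = 0.993). Its HFD libraries, from 9.62 to 13.8 FPKM, overlapped the ND range of 9.51 to 11.2 FPKM.

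The members varied less between rats of the same diet than most genes. The median within-diet SD on the log2 scale was 0.17 over the 86 tested members and 0.27 over all tested genes. Among genes with a mean of at least 20 FPKM it was 0.16 for 70 members and 0.21 for all 2539, a smaller gap than over all tested genes. The least variable members were Ndufa6 and Ndufs4 in complex I and Atp5j in complex V, with SDs of 0.07, 0.08 and 0.10. The most variable nuclear subunits were Ndufs7 in complex I (0.44) and Atp5d in complex V (0.37), both named here after their values were seen.

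The 5 complexes shared their high and low libraries. As a score, the log2 CPM of each tested member were centred on their mean over the 8 libraries and averaged: the members stood at 0.01, 0.03 and 0.07 in ND-1 to ND-3 and at 0.01, -0.11, -0.15, 0.03 and 0.13 in HFD-1 to HFD-5. HFD-2 and HFD-3 were low and HFD-5 high, so that the HFD rats lay on both sides of the ND rats. HFD-5 was the highest library in 35 of the 86 members (40.7%), where it was the highest in 11.3% of all tested genes. HFD-3 was the lowest in 33 members (38.4%, against 18.8% of all tested genes) and HFD-2 in 27 (31.4%, against 11.8%).

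All 5 complexes had this order at its ends: HFD-5 scored between 0.13 (complex II) and 0.19 (complex I), HFD-2 between -0.16 (complex I) and -0.12 (complex III), and HFD-3 between -0.17 (complex III) and -0.09 (complex IV). The assembly factors and cytochrome c did not follow it in full. They were low in HFD-3 (-0.26 and -0.09), but stood at 0.11 each in HFD-2 and at -0.10 and -0.01 in HFD-5. Other scalings of the libraries left HFD-5 highest or next to highest among the 8 in the score of all members, at 0.06 with library totals alone, where ND-2 stood at 0.08. The 89 tested ribosomal protein genes, another set of short and abundant messages, had another order: 0.15 in HFD-2, -0.08 in HFD-3 and -0.05 in HFD-5. Parts of the order were also seen outside the members. The 10 tested genes of coenzyme Q synthesis were highest in HFD-5 (0.10) and lowest in HFD-3 (-0.09). The 12 tested genes of the citric acid cycle were lowest in HFD-3 (-0.27) and HFD-2 (-0.04), but highest in ND-1 (0.12). In HFD-3 the high macrophage markers given above went with the low score. Their part in it was not tested.

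**Figure D3:**
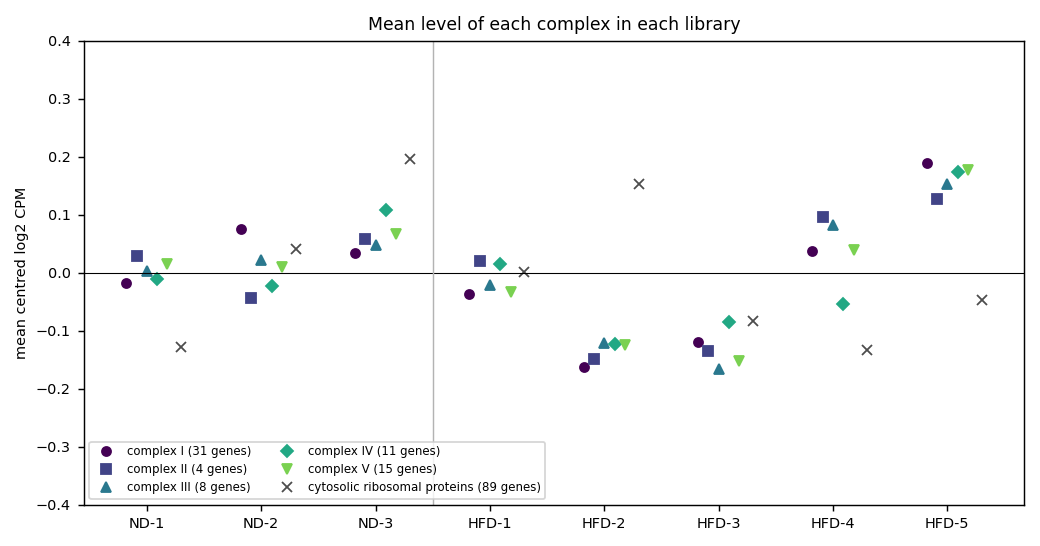
Mean centred log2 CPM of the tested subunits of each complex in each of the 8 libraries, with the cytosolic ribosomal protein genes as crosses. The 5 complexes lie close together within a library, lowest in HFD-2 and HFD-3 and highest in HFD-5, and the ribosomal protein genes do not follow them.

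Individual members, like other genes, also differed between the deeper and the shallower libraries, in both directions. In 20 of the 86 members (23.3%) the 4 deeper and the 4 shallower libraries did not overlap, on TMM-scaled CPM. The same was true of 17% of all tested genes, so the split was not particular to the members. Of the 20 members, 12 were higher and 8 lower in the shallower libraries. The 20 were picked out by this split, so their values are a description.

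Ndufs7 (chromosome 7, 12318757 to 12326392 on Rnor_6.0), the subunit that carries the last iron-sulfur cluster before coenzyme Q, had 32.5 and 33.9 FPKM in the deeper ND-1 and ND-3 and 34.0 and 27.8 FPKM in the deeper HFD-1 and HFD-2. In the shallower libraries it had 56.5 FPKM in ND-2 and 46.9, 58.0 and 53.0 FPKM in HFD-3 to HFD-5. This split cut across the diets, and the log2 fold change of HFD against ND was 0.10 with an interval of -0.50 to 0.71, the widest of the nuclear complex I subunits. Ndufv1, the NADH-binding subunit, and Atp5d, Cox5b and Cox4i1 were also higher in the shallower libraries, and Ndufb3, Ndufs1, Cox7c and Ndufaf2 were lower.

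Since 3 of the 5 HFD libraries but 1 of the 3 ND libraries were shallower, depth is partly mixed with diet. Within the deeper libraries the mean score of all members in HFD minus that in ND was -0.09, and within the shallower ones, with 1 ND library, it was -0.03. The shallower libraries also held more messages of striated muscle, summing to 6.27 FPKM in ND-2 and 4.90 to 6.30 FPKM in HFD-3 to HFD-5, against 0.338 to 1.03 FPKM in the deeper libraries. The few reads of the muscle forms were also mostly there: 16 of the 18 of Cox6a2 and both reads of Cox8b came from the shallower libraries. The part of muscle messages in the split was not tested.

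**Figure D4:**
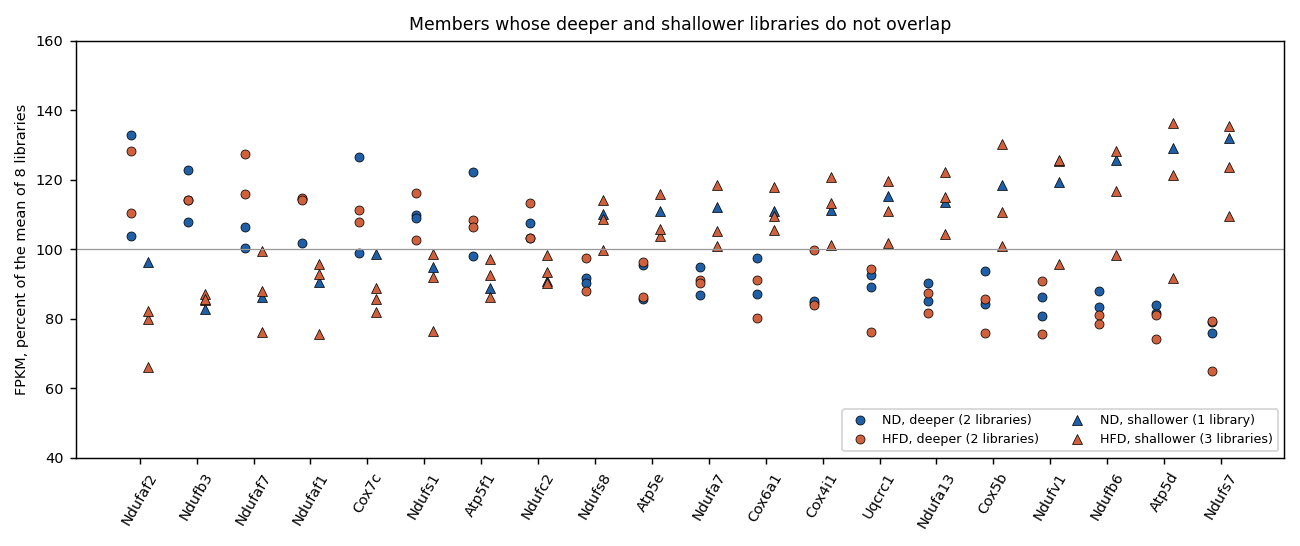
FPKM of the 20 members whose deeper (circles) and shallower (triangles) libraries did not overlap, as a percent of the mean of the 8 libraries, with ND in blue and HFD in orange, 1 point per library. The 8 members on the left were lower and the 12 on the right higher in the shallower libraries of both diets.

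Some sequence motifs, which the choice by symbol did not use, were found more often in promoters of the members than in all promoters. NRF-1 and the ETS factor GABP (also called NRF-2) are known regulators of respiratory chain genes, YY1 is another factor bound at many of their starts, and the ERR receptors work with the coactivator PGC-1alpha. In the window from 250 bases before to 50 bases after the gene start, taken from RefSeq on GRCr8 for 76 of the 87 members outside the extra copies, letters of these motifs were searched on both strands. CGCANGCG, the core of the NRF-1 motif, was found in 23 promoters (30.3%), where 8.23% of 27457 promoters had it. This short core was taken after a longer form had been found in fewer promoters. CCGGAAG (ETS) was in 21 (27.6%, against 9.22%), AAGATGGC (YY1) in 14 (18.4%, against 3.44%) and TCAAGGTCA (ERR) in 2 (2.63%, against 0.412%). At least 1 of the first 3 was in 45 promoters (59.2%, against 18.2% of all), 31 had none of them, and no matches of different motifs overlapped.

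The base composition of these windows also differed from that of all promoters, with a median GC content of 57.2% against 52.3% and a median observed to expected CpG ratio of 0.80 against 0.42. The NRF-1 and ETS motifs contain a CpG and the other 2 do not, and the part of composition in the counts was not tested. A match is only a run of letters, with no measure of binding here. The 3 promoters below show 1 subunit each of complexes IV, V and II, with the matches in capitals: CCGGAAG read from the other strand near the start of Cox4i1, an NRF-1 match followed by a YY1 match at the start of Atp5o, and 3 NRF-1 matches in Sdha. They are printed 5′ to 3′ along the gene, with GRCr8 positions.
Cox4i1, chr19:65630133-65630432, plus strand: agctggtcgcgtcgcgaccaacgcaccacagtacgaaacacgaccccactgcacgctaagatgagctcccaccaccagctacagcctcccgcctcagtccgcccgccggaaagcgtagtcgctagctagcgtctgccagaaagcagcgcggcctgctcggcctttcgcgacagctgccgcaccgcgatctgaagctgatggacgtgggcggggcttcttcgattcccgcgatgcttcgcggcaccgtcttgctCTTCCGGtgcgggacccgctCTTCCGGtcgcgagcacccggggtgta
Atp5o, chr11:44657434-44657733, minus strand: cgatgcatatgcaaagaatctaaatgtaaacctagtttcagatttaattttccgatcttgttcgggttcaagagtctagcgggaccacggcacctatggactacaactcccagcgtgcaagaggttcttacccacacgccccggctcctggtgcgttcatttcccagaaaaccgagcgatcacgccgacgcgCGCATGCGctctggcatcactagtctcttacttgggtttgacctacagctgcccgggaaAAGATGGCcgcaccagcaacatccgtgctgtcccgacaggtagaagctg
Sdha, chr1:30764303-30764602, plus strand: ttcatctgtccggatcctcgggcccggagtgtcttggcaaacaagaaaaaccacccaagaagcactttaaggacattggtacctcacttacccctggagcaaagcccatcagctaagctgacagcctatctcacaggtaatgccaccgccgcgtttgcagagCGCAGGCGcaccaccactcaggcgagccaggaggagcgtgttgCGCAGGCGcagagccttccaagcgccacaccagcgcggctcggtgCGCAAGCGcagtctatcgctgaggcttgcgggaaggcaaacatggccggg

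The messages of the factors themselves did not pass between the diets. Ppargc1a, which encodes PGC-1alpha, ranged from 0.663 to 3.60 FPKM in ND and from 1.13 to 3.34 FPKM in HFD, with a log2 fold change of 0.0029 and an interval of -1.26 to 1.27. The interval of Nrf1 was -0.26 to 0.31, that of Gabpa, which encodes the DNA-binding subunit of GABP, -0.35 to 0.28, and that of Esrra -0.45 to 0.54. Tfam, the factor that packages and transcribes mitochondrial DNA, had a log2 fold change of 0.12 (interval -0.21 to 0.46). Over the 18 regulators listed, edgeR and DESeq2 each called 0 after adjustment, and each gave 0 at an unadjusted p under 0.05. The smallest p-values were those of Esrrg (log2 fold change 0.38, edgeR adjusted p = 0.940) and Yy1 (0.15, edgeR adjusted p = 0.978).

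Assembly factors outside the symbol rule and coenzyme Q genes also had medians near 0. Of 34 assembly factors outside the symbol rule, 16 were fitted higher and 18 lower, with a median log2 fold change of -0.02. Sdhaf4, a complex II assembly factor, had -0.33 (edgeR adjusted p = 0.930) and Timmdc1, a complex I assembly factor, -0.22 (edgeR adjusted p = 0.940). Of 10 coenzyme Q genes, 5 were fitted higher and 5 lower, and Coq4 and Coq5, with the smallest p-values, had edgeR adjusted p of 0.993 each. In both lists edgeR and DESeq2 called 0 genes, and both gave 0 at an unadjusted p under 0.05.

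All 12 tested genes of the citric acid cycle were fitted lower in HFD, with a median log2 fold change of -0.06, where 48.8% of all tested genes were fitted lower. This lean depended most on HFD-3, the library with the high macrophage markers: without it 7 of the 12 were fitted higher and 5 lower, and the median was 0.0020. Other libraries also weighed on it. Of the 12 genes, 4 were fitted higher and 8 lower without ND-1, and likewise without ND-3. Without HFD-2, 2 of the 12 genes were fitted higher and 10 lower. Their summed level was 508 FPKM in HFD-3, against 610 to 634 FPKM in the other HFD libraries and 617 to 624 FPKM in ND, and the part of the macrophage messages in it was not tested. Dlst, a core enzyme of the 2-oxoglutarate dehydrogenase complex, had 42.9, 50.6 and 52.3 FPKM in ND-1 to ND-3 and 45.1, 40.2, 38.7, 43.6 and 40.7 FPKM in HFD-1 to HFD-5 (log2 fold change -0.23, edgeR adjusted p = 0.871). By FPKM HFD-1 lay above ND-1, and after TMM scaling just below it, with 123 against 125 CPM. Idh3a, the catalytic subunit of NAD-dependent isocitrate dehydrogenase, had a log2 fold change of -0.23 (edgeR adjusted p = 0.975). By edgeR and by DESeq2, 0 of the 12 passed after adjustment and 1 had an unadjusted p under 0.05.

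Among 16 tested genes for other routes into coenzyme Q and for uncoupling, 1 was higher and 1 lower at an unadjusted p under 0.05. Etfdh, which passes electrons from fatty acid oxidation to coenzyme Q, had 82.2, 68.2 and 81.4 FPKM in ND-1 to ND-3 and 121, 87.5, 108, 94.4 and 96.2 FPKM in HFD-1 to HFD-5. All HFD libraries were above all ND libraries, though after TMM scaling HFD-2 had 191.5 CPM and ND-1 191.0, with a log2 fold change of 0.37 (interval 0.05 to 0.69, edgeR adjusted p = 0.806). Prodh, proline dehydrogenase, had 52.5, 56.4 and 80.0 FPKM in ND and 28.1, 32.1, 23.3, 44.8 and 56.7 FPKM in HFD, with HFD-5 inside the ND range (log2 fold change -0.77, edgeR adjusted p = 0.806). Neither passed over all genes, and DESeq2 also called 0 of the 16 and gave 2 at an unadjusted p under 0.05.

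The 13 subunits encoded in mitochondrial DNA included 1 rat that stood out. Between the diets, edgeR and DESeq2 called 0 of the 13 after adjustment and 0 at an unadjusted p under 0.05. HFD-4 had the highest level of 11 of the 13, among them 6 of the 7 complex I genes. Mt-nd4 had 150, 153 and 165 FPKM in ND-1 to ND-3 and 110, 142, 132, 636 and 176 FPKM in HFD-1 to HFD-5, so that HFD-4 was 3.62 times the next library. Mt-nd2 had 407 FPKM in HFD-4 and 72.5 to 124 FPKM in the other 7 libraries. Mt-nd4l had 289 FPKM against 73.5 to 91.4, and Mt-nd5 304 FPKM against 68.5 to 103.

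The higher level in HFD-4 was uneven along the mitochondrial genome. Mt-co1 had 8385 FPKM there and 6692 to 8012 in the other libraries, and Mt-co2, at 2242 FPKM, lay inside their range of 1769 to 2345. Mt-nd6, which is read from the light strand, had 322 FPKM in HFD-4 and was highest in HFD-3 with 436 FPKM (log2 fold change over the diets 0.33, edgeR adjusted p = 0.975). The nuclear complex I subunits did not share the pattern, with a score of 0.04 in HFD-4. The log2 fold change of Mt-nd2 over the diets was 0.68 (interval -0.49 to 1.85, edgeR adjusted p = 0.993) with HFD-4 and 0.01 without it.

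**Figure D5:**
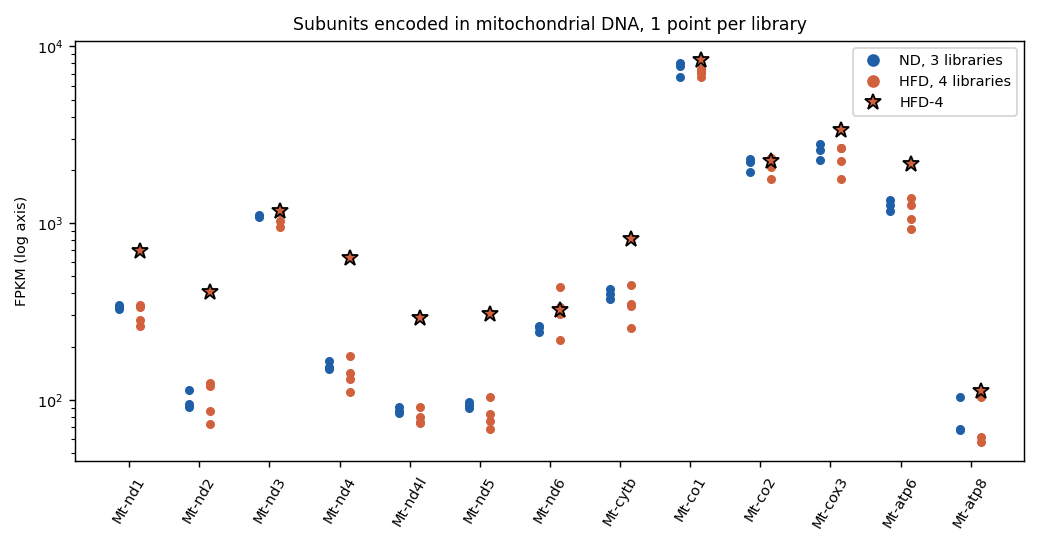
FPKM (log axis) of the 13 subunits encoded in mitochondrial DNA, 1 point per library, with HFD-4 as a star. HFD-4 lies above the other 7 libraries in 11 genes, by 3.62 times in Mt-nd4 and by little in Mt-nd3, Mt-co1 and Mt-atp8.

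The extra copies carry their own uncertainty, and how reads that fit 2 places were handled was not stated. Atp5f1, a peripheral stalk subunit of ATP synthase, had 2 rows of 2579 nucleotides each on chromosome 2, at 208408890 to 208420163 and 208566385 to 208577146 of Rnor_6.0. The second row held between 48.4% and 50.4% of their joint reads in every library, so the level of each row alone is uncertain. The other copies were minor: at most 3.50% of the joint reads for Cox6b1, 3.32% for Cox7a2, 1.67% for Cycs, 1.15% for Ndufa13 and 0.41% for Uqcr10. Of the 97 members, 11 had too few reads to test, with means of at most 0.297 FPKM: the 7 second forms of complex IV subunits, the copy of Uqcr10, Atp5hl1, Ndufb4l1 and Cox6c1, which like Cox7b2 was at 0 in all libraries.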

How the data were processed

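RNA-seq of 8 rat livers was used (3 ND, 5 HFD), grouped by the diet in the labels. Alignment with TopHat2 2.0.9 and quantification with Cufflinks 2.2.1 and Cuffdiff on Rnor_6.0 are named in the submitters' processing notes. The notes do not say which of them gave the counts, which annotation was used, or how strand and reads with several places were treated, so overlapping, antisense and near-identical genes are uncertain. The authors deposited a read count and an FPKM for each gene and library. The deposited FPKM equals the count divided by a fixed gene length and the library total, within a relative spread of 0.000764, and that length is the implied length. A table of long noncoding RNAs was not used.

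Counts were tested with edgeR 4.0.16 (R 4.3.3): TMM scaling, its default filter on low counts, the quasi-likelihood test, 2-sided, with Benjamini-Hochberg adjustment over all 14148 tested genes at 0.05. Each 95% interval is the log2 fold change plus or minus the t quantile times its standard error. The same code was tested on simulated data. Scores used log2 CPM (counts scaled to TMM library sizes) with a prior count of 2. Alternatives were 3 other scalings, 2 other filters, DESeq2 1.42.0, a replicate block, depth as a covariate and each library left out. Counting limits cover counting error only. No pair of libraries of 1 diet was alike within sampling noise (chi-square per degree of freedom of at least 23.4). The NRF-1 letters searched are a short core, taken after a longer form, found in fewer promoters, had been searched. Of 196 symbols in the pathway and marker lists, 9 were not matched.

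The members, the lists and the depth split were chosen with earlier results of these data known. The genes named were, in each complex and among the assembly factors, the most abundant and the 2 with the smallest p, the isoform sets, the 2 smallest p of each pathway list and 5 regulators. Genes in the depth split, the most variable members, the other most abundant subunits, the mitochondrial pattern of HFD-4, Fer1l5 and the promoters printed were chosen after their values were seen.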

Additional observations from a re-analysis of the deposited data

Results flagged for a closer look

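In 61 sets of the 5 HFD libraries, 1 gene each, the gap of the highest or lowest library to its neighbour was compared with the whole range. Chance sets apart about 1 in 20 such groups, and 7 were found here. Atp5o had 109.1 FPKM in HFD-3, below 126.3 to 133.2 FPKM in the other HFD libraries. Atp5g3 had 214.5 FPKM in HFD-4, above 159.8 to 167.7 FPKM. The other 5 were genes of mitochondrial DNA, each high in HFD-4: Mt-nd1 with 696.1 FPKM (others 260.2 to 346.0), Mt-nd2 with 407.2 (72.51 to 124.0), Mt-nd4 with 635.8 (110.0 to 175.8), Mt-nd4l with 288.6 (73.45 to 91.12) and Mt-nd5 with 303.9 (68.49 to 103.5). These genes share a transcript and a library, so they are not separate events.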

How the results depend on the processing

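No member passed under any of the 17 other settings, and no named gene with a test did. The median log2 fold change over the members ran from -0.11 to -0.0067 and was below 0 in each setting. The number of genes passing over the whole table moved from 1 to 18 without a filter, 5 with depth as a covariate and 131 by DESeq2. With 1 library left out it ran from 0 to 9: 0 without ND-2, HFD-2 or HFD-4, 2 without HFD-3, 8 without ND-1 and 9 without HFD-5. Same-numbered libraries of the 2 diets deviated together with r = 0.11, -0.28 and 0.07. ND-2 and HFD-2 differed in depth, as did ND-3 and HFD-3, so these values cannot tell whether the replicate numbers pair rats. With the numbers as a block in 6 libraries, 7 genes and 0 members passed. The same 6 libraries without the block, tried after the data were seen, gave 5 genes and 0 members. The median of complex III was -0.16 with the block. Fitted values near 0 changed sign, and the cause was not tested. The log2 fold changes that did so were, under RLE scaling Cox8a 0.00319; with library totals alone Ndufa6 0.00274, Cox8a 0.00517, Ndufa4 0.00429; without a filter Ppargc1a -0.00655; by DESeq2 Cox8a 0.000878; with depth as a covariate Ndufa6 0.00231, Cox7a2l 0.00394, Cox6a1 -0.0722, Ndufa4 0.0477, Ppargc1a -0.16, Gabpa 0.0463, Esrra -0.11; with the replicate block Ndufa6 0.0233, Sdhc -0.0472, Cox4i1 -0.00378, Cox6a1 -0.11, Ndufa4 0.00324, Atp5g3 -0.0304, Mt-nd2 -0.16, Ppargc1a -0.30, Nrf1 -0.00178, Gabpa 0.0715, Esrra -0.17. With 1 library left out, those that changed sign ranged over Ndufa6 -0.0433 to 0.00956, Sdha -0.0557 to 0.0415, Sdhc -0.00334 to 0.0784, Uqcrh -0.16 to 0.0136, Cycs -0.0984 to 0.26, Atp5b -0.18 to 0.00269, Cox7a2l -0.0616 to 0.0715, Cox6a1 -0.0587 to 0.11, Cox7a2 -0.22 to 0.0383, Cox7b -0.0709 to 0.11, Cox8a -0.0729 to 0.0547, Ndufa4 -0.11 to 0.0653, Atp5g2 -0.18 to 0.0162, Atp5g3 -0.00890 to 0.12, Ppargc1a -0.38 to 0.97, Nrf1 -0.0234 to 0.0700, Gabpa -0.13 to 0.0798, Esrra -0.0752 to 0.25. Summed FPKM of a complex moved by more than the SD between rats under TMM scaling in 5 of 48 values, and the second forms of the complex IV subunits are limited by depth, with at most 26 reads each.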
